A study of Mus musculus with 4 samples.

Results

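The distal end of a mouse chromosome is the end far from the centromere. Mouse autosomes have the centromere next to one end, so each has a single long arm, and its distal end runs through the last mapped sequence into the telomere. The last 1 Mb of each of the 19 autosomes was taken back from the highest read position listed for that chromosome in any of 4 libraries, and was cut into 4 kb tiles, which gave 4750 tiles of 601307 on the autosomes. Each end was set against the stretch 5 to 10 Mb from the same end, called the inner stretch here. The rule itself uses positions and no enrichment, although it was set with earlier results of these data known.

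The libraries came from chromatin immunoprecipitation and sequencing (ChIP-seq) in MDER 10T cells, mouse fibroblasts that the series title describes as carrying MyoD1 under estrogen control. The 3 immunoprecipitated libraries used antibodies against H3K4me3, H3K27me3 and H3K9me3, and the control was a library of whole-cell extract (WCE) sequenced with no immunoprecipitation. All 4 libraries share the cell line and the growth conditions, phenol red-free DMEM/F12 with 10% FCS, and the labels mention no treatment with estrogen. Each group holds 1 library, so there is no replicate spread, and tests on reads set 1 mark library against 1 WCE library, not condition against condition. Expression was not measured, so the fibroblast label was not checked against marker genes. With each signed position counted 1 time, the autosomes held 3086567 H3K4me3, 2933567 H3K27me3, 2101444 H3K9me3 and 2977697 WCE reads with 1 reported position, of which 29266, 23950, 15650 and 23826 lay in the distal ends.

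As background, H3K4me3 is laid down at the starts of active genes, H3K27me3 by the Polycomb complexes over silenced developmental genes, and H3K9me3 over heterochromatin. Telomere repeats themselves, and the satellite DNA of centromeres, are classic sites of H3K9me3 in mouse cells. Reads of such repeats match many places and were dropped at alignment, so what is measured at the ends is the unique sequence just inside the telomere, which in mammals can hold ordinary genes, gene families and recent duplications. All positions are in the mm8 build and counted from 1. No mm8 sequence or gene annotation was used here, so no sequence is printed and no tile is assigned to a gene. Where neighbouring genes are named, they are the most distal protein-coding genes of that chromosome in the RefSeq annotation of GRCm38.p6, a later build, and they are given by order only.

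Taken as a whole, the distal ends carried more H3K4me3 than the inner stretches, slightly less H3K27me3 and clearly less H3K9me3. The H3K4me3 ratio to WCE was 1.185 in the distal ends (95% exact interval 1.165 to 1.205), against 1.06 (1.05 to 1.06) in the inner stretches. The H3K27me3 ratio was 1.02 (1.002 to 1.04) in the distal ends and 1.08 (1.07 to 1.08) in the inner stretches. The H3K9me3 ratio was 0.931 (0.912 to 0.9497) in the distal ends and 1.16 (1.15 to 1.17) in the inner stretches. A ratio is the mark's reads over WCE reads after scaling to equal autosomal totals, so 1 is the autosomal mean, and intervals cover counting error only, since PCR copies carry no molecular identifiers and reads need not be separate molecules. The fold of the distal over the inner ratio was 1.12 for H3K4me3 (1.10 to 1.14, two-sided Fisher's exact p = 7.87e-34), 0.948 for H3K27me3 (0.930 to 0.967, exact p = 6.38e-08) and 0.804 for H3K9me3 (0.787 to 0.822, exact p = 2.71e-88). The levels depend on the scaling: with the median of 100 kb bins in place of totals, the distal ratios were 2.08 for H3K4me3, 1.27 for H3K27me3 and 0.988 for H3K9me3, with the folds as they were. The direction of 2 of the folds was not stable: H3K4me3 was at 0.923 against a uniform background in place of WCE and at 1.01 (exact p = 0.281) against 2 to 5 Mb from the end. H3K27me3 was at 1.02 against all of the autosome further in and at 1.01 without chromosome 8, while H3K9me3 stayed below 1 in each of these.

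The pooled values hide how unlike the ends are. For H3K4me3 the fold was above 1 at 9 ends and below 1 at 10. The extremes were 0.305 (chromosome 12) and 1.80 (chromosome 4), and the median over the 19 ends was 0.971, on the other side of 1 from the pooled fold. For H3K27me3 it was above 1 at 3 ends and below 1 at 16, with a median of 0.822 and a range of 0.539 to 1.76. For H3K9me3 it was below 1 at all 19 ends, with a median of 0.763 and a range of 0.582 to 0.975. The spread over ends, as the SD of the log2 fold, was 0.69 for H3K4me3, 0.48 for H3K27me3 and 0.21 for H3K9me3. H3K9me3 therefore differed least from end to end and H3K4me3 most, an order also found over all 1 Mb autosomal blocks, described next.

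To read the ends against the rest of the genome, every 1 Mb autosomal block was compared with the 5 Mb that lies 5 to 10 Mb further in from its own distal edge, by a two-sided Fisher's exact test with Benjamini-Hochberg adjustment over 2199 blocks per mark. A block was called higher at an adjusted p under 0.05 and a fold of at least 1.2, and lower at a fold of at most 1 over 1.2. For H3K9me3, 13 of 19 ends (68.4%) were called lower, where 19.6% of all blocks were, and 0 of 19 were called higher, where 17.1% of all blocks were. The count of lower ends was 8 against 2 to 5 Mb (16% of all blocks), 7 against all of the autosome further in (17%) and 4 with a fold limit of 1.5 (2.27%), and 1 end was called higher against all further in (11.8%) and 3 against a uniform background (40.2%). For H3K27me3, 10 ends (52.6%) were called lower, against 36.8% of all blocks, and 2 (10.53%) were called higher, against 27.6%. For H3K4me3, 7 ends were called lower and 7 higher (36.8% each), against 43.7% and 30.3% of all blocks, which is near the background in both directions. The median fold was 0.763 at the ends against 0.997 over all blocks for H3K9me3, 0.822 against 0.952 for H3K27me3, and 0.971 against 0.916 for H3K4me3. From the 5th to the 95th percentile, the folds of all blocks ran from 0.706 to 1.39 for H3K9me3. They ran from 0.496 to 1.76 for H3K27me3 and from 0.349 to 2.12 for H3K4me3, so the order of spread was not particular to the ends.

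**Figure D1:**
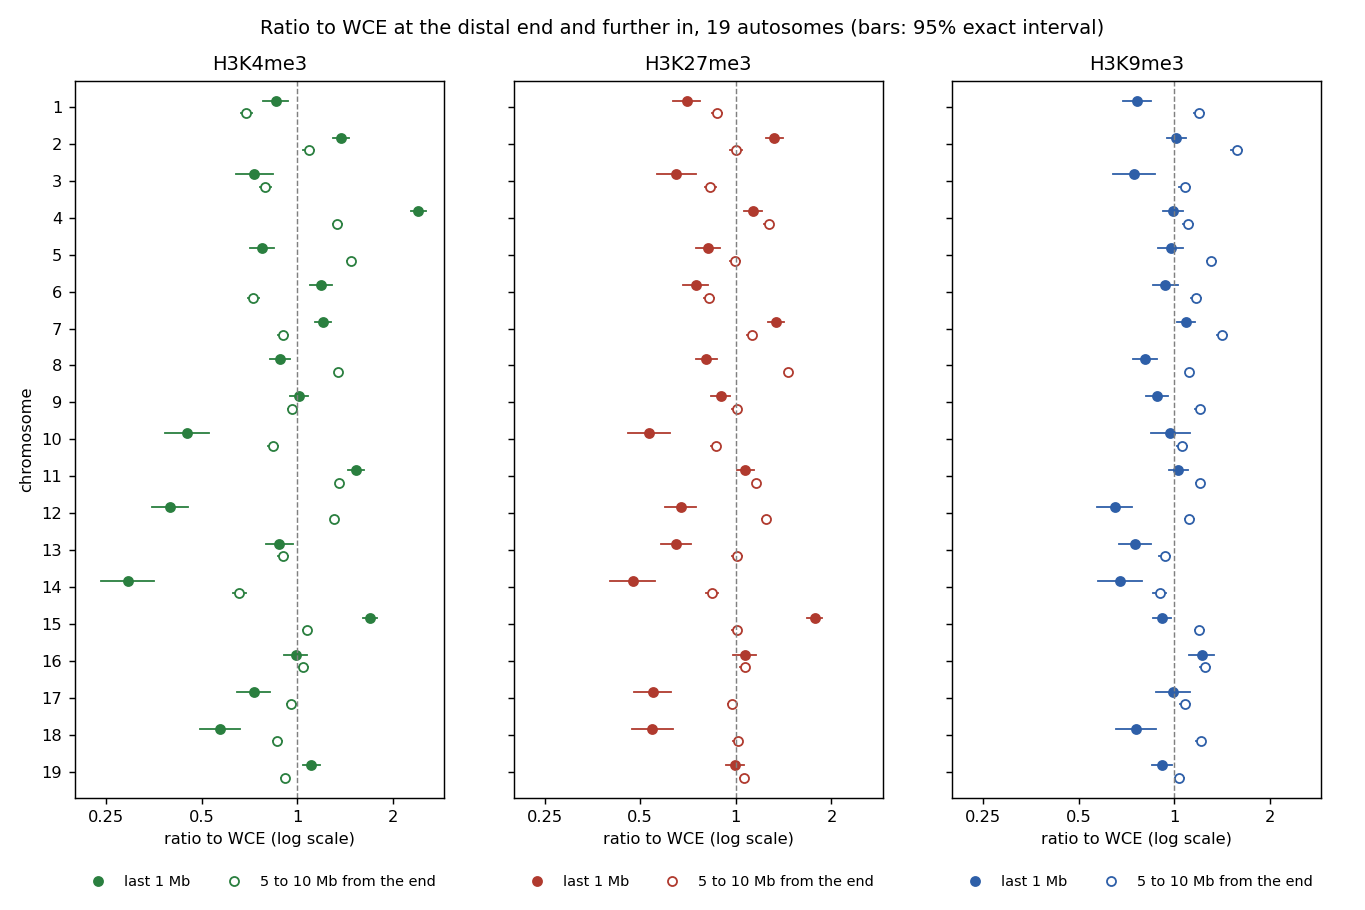
Ratio of each mark to WCE (log axis) in the last 1 Mb of each autosome (filled) and 5 to 10 Mb from the same end (open), with 95% exact intervals. In the H3K9me3 panel the filled point lies left of the open one on all 19 chromosomes, while in the H3K4me3 panel the filled points run from 0.293 on chromosome 14 to 2.40 on chromosome 4.

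The ends fell into several combinations of calls. Chromosomes 5, 8, 12, 14 and 18 were called lower for all 3 marks. Chromosomes 2 and 15 were called higher for H3K4me3 and H3K27me3 and lower for H3K9me3. Chromosome 1 was called higher for H3K4me3 and lower for the other marks, chromosomes 6 and 7 higher for H3K4me3 and lower for H3K9me3, and chromosomes 4 and 19 higher for H3K4me3 alone. Chromosomes 11 and 16 had no call for any mark. Chromosomes 3 and 13 were called lower for H3K27me3 and H3K9me3, chromosomes 10 and 17 lower for H3K4me3 and H3K27me3, and chromosome 9 lower for H3K9me3 alone.

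H3K4me3, the mark of active promoters, was highest relative to the inner stretch at the ends of chromosomes 4, 6 and 15. The end of chromosome 4 (154029607 to 155029606) held 4471 H3K4me3 and 1794 WCE reads, a ratio of 2.40 (2.28 to 2.54) against 1.34 (1.30 to 1.38) in the inner stretch, and its fold was 1.80 (1.68 to 1.91, adjusted exact p = 1.72e-74). Chromosome 6 had at its end 1445 H3K4me3 and 1171 WCE reads, a ratio of 1.19 against 0.728, for a fold of 1.64 (1.4996 to 1.78, adjusted exact p = 6.37e-29). At chromosome 15 the end held 3950 and 2244 reads, a ratio of 1.698 against 1.07, for a fold of 1.58 (1.49 to 1.68, adjusted exact p = 1.60e-50). In the later build the genes closest to the end of chromosome 4 include Samd11, Noc2l, Klhl17, Plekhn1, Perm1, Isg15 and Agrn. Isg15 encodes an interferon-induced ubiquitin-like protein and Agrn encodes agrin, a proteoglycan that organises the neuromuscular junction.

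At the other extreme stood chromosomes 12, 14 and 5. The end of chromosome 12 held 328 H3K4me3 and 793 WCE reads, a ratio of 0.399 (0.350 to 0.454) against 1.31 (1.27 to 1.34) in the inner stretch, for a fold of 0.305 (0.266 to 0.348, adjusted exact p = 1.20e-76). Of all 1 Mb blocks, 2.23% had a lower H3K4me3 fold. Chromosome 14 had at its end 145 and 477 reads, a ratio of 0.293 against 0.658 and a fold of 0.446 (0.365 to 0.541, adjusted exact p = 8.68e-18). At chromosome 5 the end held 946 and 1180 reads, a ratio of 0.773 against 1.48 and a fold of 0.524 (0.478 to 0.574, adjusted exact p = 1.99e-43). In the later build the last genes of chromosome 14 are Fgf14, which encodes an intracellular regulator of sodium channels, Itgbl1 and Nalcn, a sodium leak channel, and those of chromosome 12 are Tmem196, Macc1 and Itgb8, a subunit of an integrin. Neither of these 2 ends had a called H3K4me3 tile.

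H3K4me3 at the ends was concentrated in a small share of tiles. A 4 kb tile was called where a one-sided exact binomial test of mark against WCE gave a Benjamini-Hochberg adjusted p under 0.05 over all autosomal tiles and the ratio was at least 2. This called 162 of 4281 distal tiles with reads (3.78%), where 2.38% of all autosomal tiles and 2.79% of tiles in the inner stretches were called (162 of 4281 against 616 of 22051, Fisher's exact p = 0.000656). Here and for the other marks, this test takes tiles as independent. Called tiles adjoin and gather at a few ends, so the p-value does not cover the spread between ends. Called tiles held 53.9% of the distal H3K4me3 reads and 10.1% of the distal WCE reads, and over the autosomes they held 42.5% of the H3K4me3 reads. Their pooled ratio was 6.34 (6.07 to 6.62) in the distal ends, 6.44 (6.30 to 6.58) in the inner stretches and 6.66 over the autosomes. Outside called tiles the H3K4me3 ratio was 0.607 (0.594 to 0.621) in the distal ends, 0.677 (0.671 to 0.682) in the inner stretches and 0.615 over the autosomes. Called tiles were picked for high H3K4me3 and were more frequent at the ends, so the values outside them are a description. The calls formed 130 stretches at 17 ends, of which 78.5% were a single tile, with no such share over all autosomes beside it. Chromosome 4 had 31 called tiles, chromosome 15 had 26, chromosome 2 had 18 and chromosome 11 had 15.

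Among the called tiles with at least 20 H3K4me3 reads, ranked by the ratio with 1 read added to each library, the first lay 8 to 12 kb from the end of chromosome 10 (129941138 to 129945137), with 21 H3K4me3 and 0 WCE reads. Its place rests on the read added to a WCE count of 0: against a floor of 3 WCE reads its ratio was 6.75, and the lower limit of its exact interval was 5.02. The other 9 tiles named by this rank had ratios of 11.7 to 18.3. On chromosome 6 the tile from 148901281 to 148905280, 620 to 624 kb from the end, held 265 H3K4me3 and 14 WCE reads, a ratio of 18.3 (10.7 to 33.9). On chromosome 4 the tile from 154333607 to 154337606 held 141 and 8 reads (ratio 17.0, 8.40 to 40.2), and the tile from 154733607 to 154737606 held 273 and 20 (13.2, 8.36 to 21.9). Reads of the other marks were closer in number to WCE. The chromosome 6 tile held 19 H3K27me3 and 18 H3K9me3 reads, with ratios of 1.38 (0.655 to 2.97) and 1.82 (0.856 to 3.96). The first chromosome 4 tile held 6 and 10, with ratios of 0.761 (0.218 to 2.50) and 1.77 (0.629 to 5.16). The other tiles among the 10 strongest lay on chromosomes 1, 2, 8, 11, 13 and 19, with ratios from 11.7 to 15.1.

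H3K4me3 came very close to the mapped end on some chromosomes. Within the last 100 kb, 20 of 391 tiles with reads were called (5.12%, against 2.38% of all tiles), at 10 of 19 ends. The share was 2.61% at 100 to 200 kb, 5.04% at 200 to 500 kb and 3.08% at 500 to 1000 kb. A share near 5% was thus not particular to the last 100 kb. The median distance from the end to the first called tile was 92 kb. The nearest calls lay 4 kb from the end on chromosomes 10 and 13, 8 kb on chromosome 17 and 12 kb on chromosome 16. The chromosome 13 end held 4 called tiles within 100 kb, with ratios of 6.39, 13.3, 14.5 and 5.67, and its last 100 kb had 327 H3K4me3 and 126 WCE reads, a ratio of 2.50. On chromosome 17 the tile 36 to 40 kb from the end held 120 H3K4me3 and 14 WCE reads (8.27, 4.74 to 15.6). On chromosome 18 the tile 20 to 24 kb from the end held 64 and 7 (8.82, 4.04 to 22.8), although that end as a whole had a ratio of 0.573. Some of these tiles also held reads with 2 reported positions in excess of WCE: 29 H3K4me3 and 12 WCE such reads 4 to 8 kb from the end of chromosome 10, 19 and 2 at 12 to 16 kb on chromosome 16, and 24 and 1 at 36 to 40 kb on chromosome 17. Reads of duplicated sequence can be placed at 1 position by a few mismatches, and the part of this in the terminal calls was not tested. In the later build chromosome 10 ends in vomeronasal receptor genes (Vmn2r84 to Vmn2r87), a family of pheromone receptors, and the last genes of chromosome 13 include Tcstv1 and Tcstv3.

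**Figure D2:**
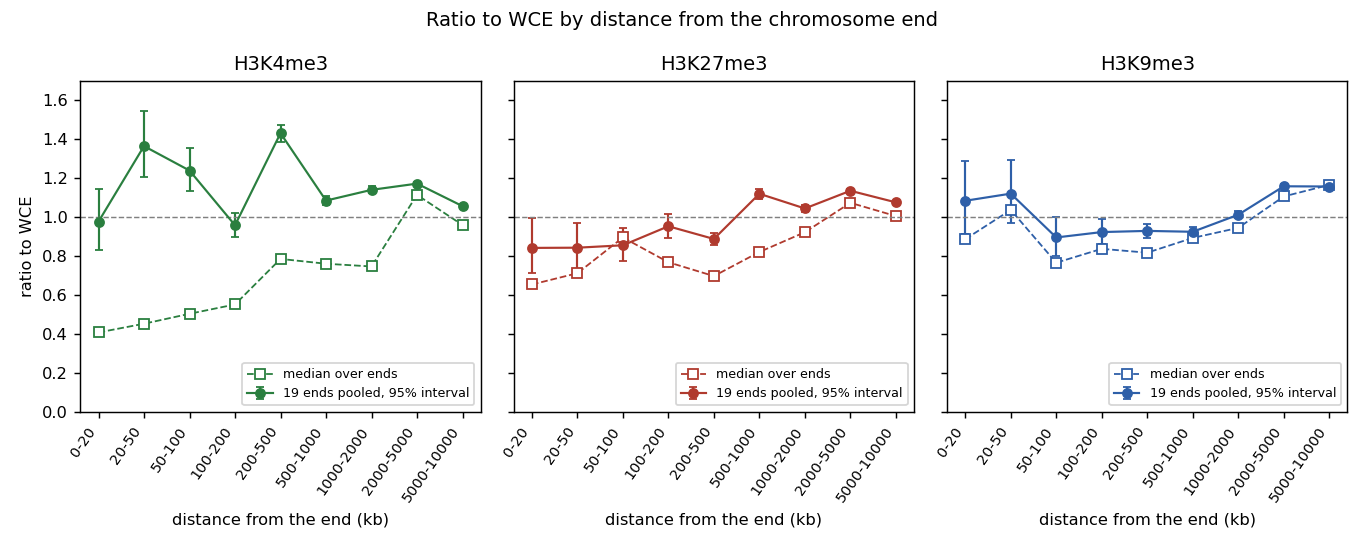
Ratio of each mark to WCE by distance from the chromosome end in kb, for the reads of 19 ends pooled (filled, 95% exact interval) and as the median over the ends with at least 10 WCE reads in the bin (open squares). In the H3K4me3 panel the pooled value is 1.43 at 200 to 500 kb while the median is 0.785, and in the H3K9me3 panel both series lie above 1.1 beyond 2000 kb.

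By distance, the H3K4me3 ratio pooled over ends was 0.977 (0.833 to 1.15) in the last 20 kb, 1.37 (1.205 to 1.55) at 20 to 50 kb, 1.24 (1.13 to 1.36) at 50 to 100 kb, 0.958 (0.900 to 1.02) at 100 to 200 kb, 1.43 (1.39 to 1.48) at 200 to 500 kb and 1.09 (1.06 to 1.11) at 500 to 1000 kb. The median, over the 16 ends with at least 10 WCE reads in the bins up to 50 kb and over all 19 beyond, was lower in every one of these bins, at 0.407, 0.452, 0.503, 0.551, 0.785 and 0.761 in the same order. Scaled by the median of 100 kb bins, the pooled value in the last 20 kb was 1.72. A few ends therefore carried the pooled peaks: chromosome 7 gave 35.9% of the H3K4me3 reads at 20 to 50 kb, and chromosome 4 gave 20.5% of those at 200 to 500 kb. Further in, the pooled ratio was 1.14 at 1 to 2 Mb and 1.17 at 2 to 5 Mb, with medians of 0.747 and 1.11. The median H3K4me3 ratio was thus lower in each bin of the last 2 Mb than at 2 to 5 Mb. The bins differ in length, so these medians are not like for like. Over 4 kb tiles with WCE reads, the median H3K4me3 ratio was 0.482 both in the distal ends and over all autosomes. Over 1 Mb, the median fold was 0.971 at the ends and 0.916 over all blocks.

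H3K27me3, the Polycomb mark, was called higher only at the ends of chromosomes 15 and 2. The end of chromosome 15 held 3914 H3K27me3 and 2244 WCE reads, a ratio of 1.77 (1.68 to 1.87) against 1.01 (0.974 to 1.04) in the inner stretch, for a fold of 1.76 (1.66 to 1.87, adjusted exact p = 2.92e-74), and 94.8% of all 1 Mb blocks had a lower fold. Chromosome 2 had at its end 2556 and 1962 reads, a ratio of 1.32 against 1.001, for a fold of 1.32 (1.23 to 1.42, adjusted exact p = 6.57e-14). Chromosome 7 came next, with 2761 and 2091 reads, a ratio of 1.34 against 1.12 and a fold of 1.196 (1.12 to 1.28, adjusted exact p = 2.16e-07), just under the limit for a call. The lowest folds were those of chromosome 18, with 281 H3K27me3 and 522 WCE reads and a fold of 0.539 (0.463 to 0.627, adjusted exact p = 2.90e-16), chromosome 12, with 524 and 793 reads and a fold of 0.540 (0.481 to 0.606, adjusted exact p = 4.56e-26), and chromosome 8, with 1181 and 1486 reads and a fold of 0.554 (0.512 to 0.600, adjusted exact p = 1.03e-47). On chromosome 8 the inner stretch was itself high, with a ratio of 1.46 (1.43 to 1.48) and 3419 WCE reads per Mb against 1486 in the distal end. It supplied 16.0% of all inner H3K27me3 reads.

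Called H3K27me3 tiles were few and lay mostly at a few ends. They numbered 53 of 4346 distal tiles with reads (1.22%), against 0.655% of all autosomal tiles and 1.14% of tiles in the inner stretches (53 of 4346 against 252 of 22124, Fisher's exact p = 0.641, a difference that did not pass). They lay at 8 ends, 25 of them on chromosome 15, 9 on chromosome 2, 7 on chromosome 7 and 6 on chromosome 4, and 11 ends had none. They formed 27 stretches, of which 74.1% were a single tile, again with no such share over all autosomes beside it. None lay in the last 100 kb of any end, where 407 tiles had reads, and the nearest were 124 kb from the end, on chromosomes 4 and 15.

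The largest of these clusters was a stretch of 72 kb on chromosome 15 (102736359 to 102808358, 684 to 756 kb from the end), with 1140 H3K27me3, 178 H3K4me3, 181 H3K9me3 and 146 WCE reads. Its H3K27me3 ratio was 7.93 (6.67 to 9.48), its H3K4me3 ratio 1.18 (0.940 to 1.47) and its H3K9me3 ratio 1.76 (1.40 to 2.20). Of the 10 strongest distal H3K27me3 tiles, 6 lay inside it, among them the tile from 102780359 to 102784358, where 110 H3K27me3 reads stood against 7 of WCE (ratio 16.0, 7.49 to 40.6). Directly against it, on the side of the telomere, lay a called H3K4me3 tile (102808359 to 102812358) with 185 H3K4me3, 23 H3K27me3 and 16 WCE reads. Closer to the telomere lay the longest H3K4me3 stretches of any distal end. One covered 20 kb (102824359 to 102844358) with 619 H3K4me3, 52 H3K27me3 and 108 WCE reads, an H3K4me3 ratio of 5.53 (4.50 to 6.85) and an H3K27me3 ratio of 0.489 (0.344 to 0.686). The other covered 12 kb (102852359 to 102864358) with 358, 29 and 50 reads and ratios of 6.91 and 0.589. Next in length, with the most H3K4me3 reads among stretches of 8 kb, was one on chromosome 11 (121514452 to 121522451), where 353 H3K4me3 reads stood against 33 of WCE, a ratio of 10.3 (7.21 to 15.2). On chromosome 15 the stretches described thus took neighbouring segments, and no tile of that end was called for both marks. Elsewhere at that end the marks were not always apart. The tile called for H3K4me3 at 516 to 520 kb had a ratio of 4.34, and 4.06 (1.62 to 12.1) for H3K27me3, on 6 WCE reads. That at 492 to 496 kb had 2.51 and 2.57 (1.38 to 5.03), on 15 WCE reads. In the later build the Hoxc genes, which encode transcription factors that set position along the body axis and are classic Polycomb targets, stand 16 to 24 places from the distal end of chromosome 15 in the order of protein-coding genes.

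**Figure D3:**
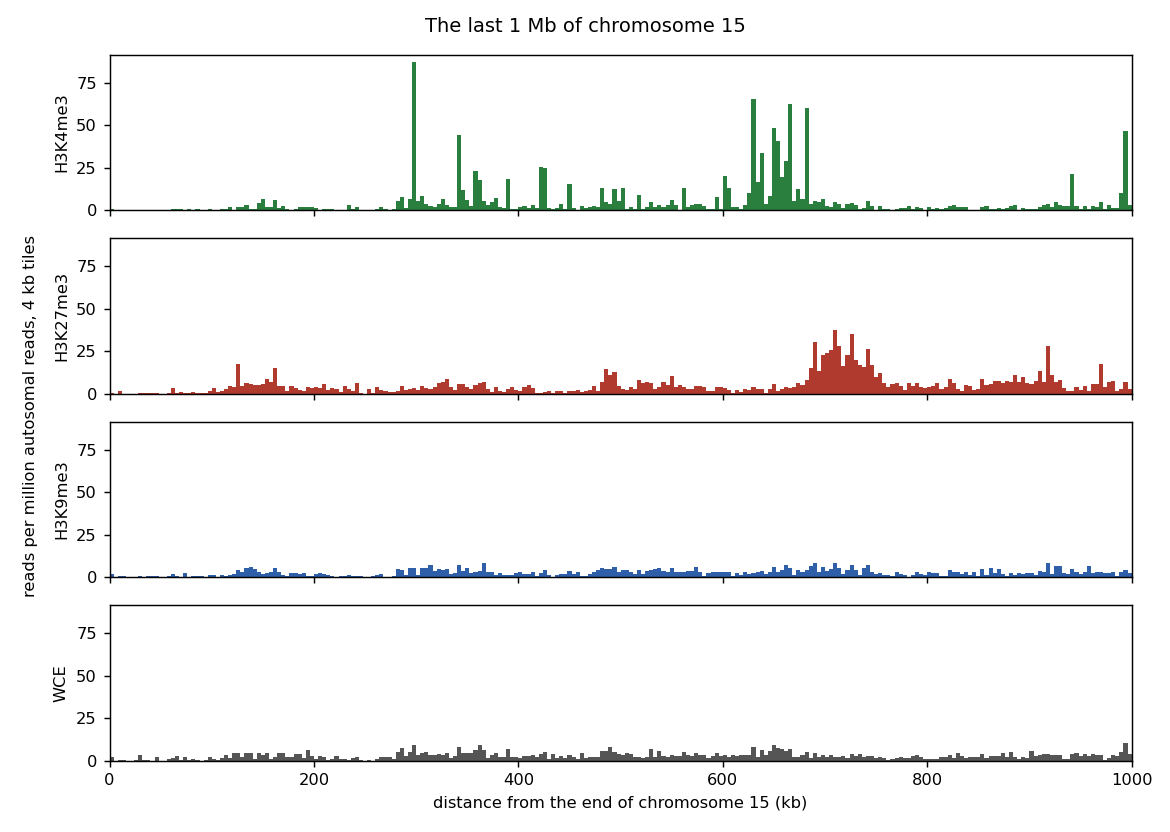
Reads scaled to equal autosomal totals in 4 kb tiles over the last 1 Mb of chromosome 15, by distance from the end in kb, for the 3 marks and WCE on 1 scale. The H3K27me3 block at 684 to 756 kb and the H3K4me3 stretches at 628 to 668 kb lie side by side.

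Elsewhere the H3K27me3 stretches were short. On chromosome 7 a stretch of 16 kb (144665929 to 144681928) held 128 H3K27me3 and 27 WCE reads (ratio 4.81, 3.16 to 7.58), and the tile from 144705929 to 144709928 held 61 and 3, at 20.6 (6.74 to 103) the highest ratio among the 10 strongest tiles of each mark. The 100 kb bin that holds them, 400 to 500 kb from the end of chromosome 7, had a ratio of 3.02 (2.54 to 3.60). In the later build Ccnd1, which encodes cyclin D1, and the fibroblast growth factor genes Fgf3, Fgf4 and Fgf15 are among the last protein-coding genes of chromosome 7. On chromosome 4 a stretch of 12 kb (154225607 to 154237606) held 86 and 15 reads (5.82, 3.34 to 10.8). On chromosome 2 the 8 kb from 181386143 to 181394142 held 136 and 21 (6.57, 4.13 to 10.96).

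H3K4me3 and H3K27me3 were called in the same tile at 2 places over all distal ends. The tile on chromosome 2 from 181386143 to 181390142 held 41 H3K4me3, 91 H3K27me3 and 16 WCE reads, with ratios of 2.47 and 5.77. The tile on chromosome 19 from 60809152 to 60813151 held 84, 33 and 9 reads, with ratios of 9.004 and 3.72. These 2 tiles are 1.23% of the called distal H3K4me3 tiles and 3.77% of the called distal H3K27me3 tiles. No share over all autosomal tiles stands beside this count, so it does not tell whether such tiles are few or many at the ends. Pooled reads do not tell whether both marks were on the same chromosomes or in different cells.

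The H3K27me3 ratio pooled over ends was 0.842 (0.711 to 0.996) in the last 20 kb, or 1.05 when scaled by the median of 100 kb bins, 0.843 at 20 to 50 kb, 0.856 at 50 to 100 kb, 0.953 at 100 to 200 kb, 0.888 at 200 to 500 kb and 1.12 (1.09 to 1.15) at 500 to 1000 kb. The medians over ends were 0.654, 0.712, 0.896, 0.768, 0.697 and 0.821. Chromosome 15 alone gave 18.75% of the reads at 500 to 1000 kb. Below 1 in that bin were 12 of 19 ends, against the pooled value above 1.

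H3K9me3 was below the inner stretch at every end. Its fold varied less from end to end than those of the other marks, as it did over all 1 Mb blocks. The lowest fold was that of chromosome 12, with 363 H3K9me3 and 793 WCE reads, a ratio of 0.649 (0.571 to 0.735) against 1.11 (1.08 to 1.15) in the inner stretch and a fold of 0.582 (0.511 to 0.663, adjusted exact p = 5.48e-16), and 0.409% of all 1 Mb blocks were lower. Chromosome 18 followed with 279 and 522 reads, a ratio of 0.757 against 1.21 and a fold of 0.626 (0.537 to 0.728, adjusted exact p = 3.97e-09), and chromosome 1 with 564 and 1049 reads, a ratio of 0.762 against 1.19 and a fold of 0.638 (0.571 to 0.712, adjusted exact p = 6.73e-15). The 3 ends closest to 1 were chromosome 16, with 934 and 1087 reads and a fold of 0.975 (0.886 to 1.07, adjusted exact p = 0.692), chromosome 10, with 342 and 499 reads and a fold of 0.921 (0.796 to 1.06, adjusted exact p = 0.343), and chromosome 17, with 438 and 627 reads and a fold of 0.917 (0.806 to 1.04, adjusted exact p = 0.259). The intervals of these 3 ends reach 1, so a difference was not shown there. Chromosome 16 was the end with the most H3K9me3, at a ratio of 1.22 (1.11 to 1.33), and its inner stretch had 1.25 (1.21 to 1.29).

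How low the ends were depends on what they are set against. The inner stretches were below the autosomal mean for H3K9me3 on 2 of 19 chromosomes, with a median ratio of 1.17. Relative to the rest of the autosomes, at a ratio of 1.001, the distal H3K9me3 ratio of 0.931 differed by less (Fisher's exact p = 2.25e-12). By distance, the pooled H3K9me3 ratio was 1.08 (0.912 to 1.29) in the last 20 kb, 1.12 (0.970 to 1.30) at 20 to 50 kb, 0.896 (0.803 to 0.998) at 50 to 100 kb, 0.923 at 100 to 200 kb, 0.930 at 200 to 500 kb, 0.925 (0.900 to 0.9504) at 500 to 1000 kb, 1.01 at 1 to 2 Mb, 1.16 at 2 to 5 Mb and 1.16 at 5 to 10 Mb. The last 50 kb held 579 H3K9me3 and 742 WCE reads, a ratio of 1.11, against 0.925 at 50 to 1000 kb, for a fold of 1.195 (1.07 to 1.34, Fisher's exact p = 0.00165, adjusted over 3 marks 0.00247). This split was chosen after the profile was seen. The difference rested on chromosome 19: without it the fold was 1.05 (exact p = 0.424), and over the 19 ends the median was 1.01 with 10 ends above 1. By the same split H3K27me3 was at 0.821 (0.736 to 0.917, adjusted exact p = 0.00114), or 0.909 without chromosome 15 (exact p = 0.0923). H3K4me3 was at 1.02 (0.919 to 1.12, adjusted exact p = 0.764), with 0.865 without chromosome 7 (exact p = 0.0102) and 1.16 without chromosome 4 (exact p = 0.0045).

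No distal 4 kb tile was called for H3K9me3, 0 of 4347 with reads at a median of 4 WCE reads per tile, where 0.0221% of all autosomal tiles and 13 of 22128 tiles in the inner stretches were called (Fisher's exact p = 0.145). The nearest called tile lay 1032 kb from an end, on chromosome 4. Over 100 kb, 5 of 190 distal bins reached a ratio of 1.5, at 4 ends, against 36 bins for H3K4me3 and 15 for H3K27me3. No share over all autosomal 100 kb bins stands beside these counts, so they describe the distal bins only. Chromosome 19 had in its last 100 kb 200 H3K9me3 and 162 WCE reads, a ratio of 1.75 (1.41 to 2.17). The same 100 kb had 244 H3K4me3 reads, a ratio of 1.45, and 171 H3K27me3 reads, a ratio of 1.07. Of the reads in this bin, 165 H3K4me3, 61 H3K27me3, 59 H3K9me3 and 60 WCE lay in 1 tile, 64 to 68 kb from the end. That tile also held many reads with 2 positions. On chromosome 16 the bins from 400 to 700 kb had H3K9me3 ratios of 1.49, 1.66 and 1.79, the last from 53 H3K9me3 and 42 WCE reads (1.17 to 2.75). These bins were picked for their values and carry no test. In the later build the last genes of chromosome 16 include Zbtb21, Prdm15 and Ripk4.

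**Figure D4:**
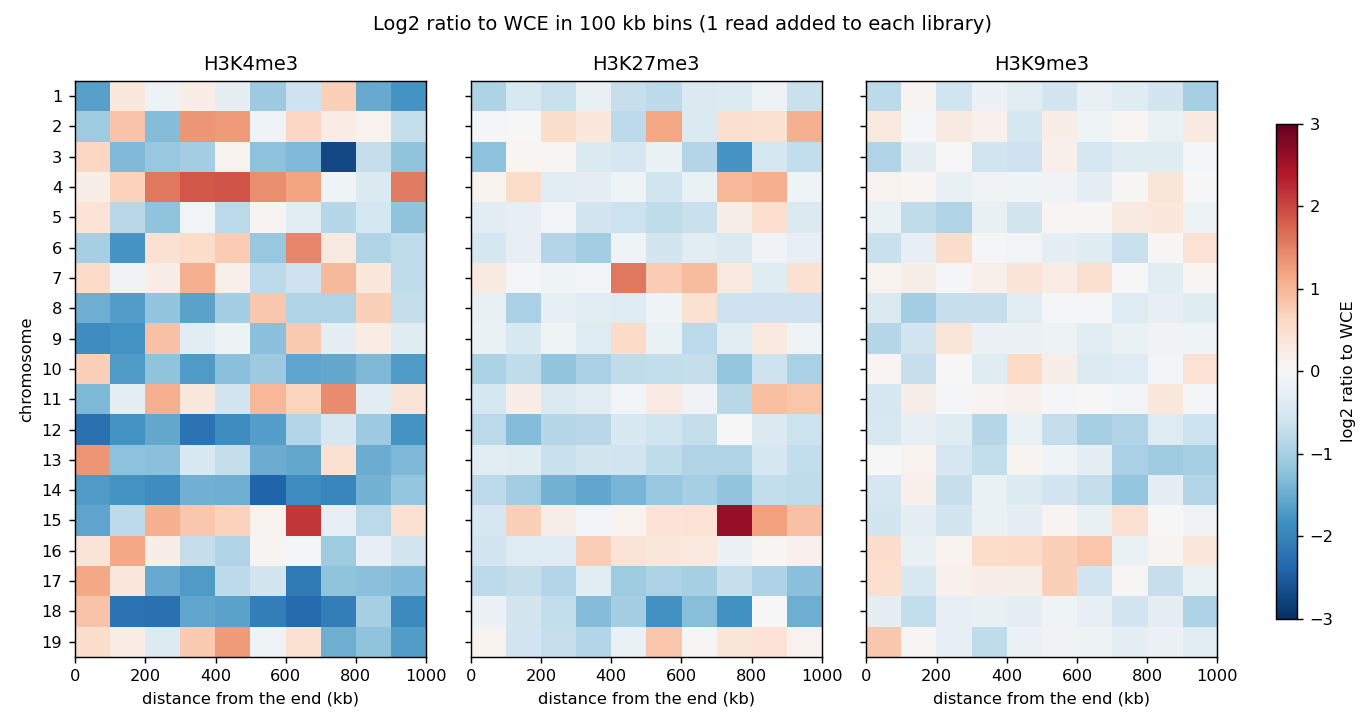
Log2 ratio of each mark to WCE in 100 kb bins, by distance from the end in kb (columns) and chromosome (rows), with 1 read added to each library. Dark red cells are the H3K27me3 block of chromosome 15 at 700 to 800 kb and the H3K4me3 bins of chromosomes 4 and 15, while no H3K9me3 bin exceeds a ratio of 1.79.

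The marks were also compared with each other end by end, as the quotient of their folds, in which WCE cancels. H3K4me3 over H3K9me3 had a median of 1.33 over the 19 ends and was above 1 at 12. H3K27me3 over H3K9me3 had a median of 1.06 and was above 1 at 11, and H3K4me3 over H3K27me3 had a median of 1.18 and was above 1 at 12. These values restate the folds above for pairs of marks, and 7 or 8 ends lay below 1 in each pair.

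The distal ends were also set against the first mapped 1 Mb of the autosomes, which lies next to the centromere. The fold of the distal ratio over that of the starts was 1.07 for H3K4me3 (distal 1.185, starts 1.11, exact p = 1.58e-07), 1.14 for H3K27me3 (1.02 and 0.892, exact p = 2.55e-24) and 0.888 for H3K9me3 (0.931 and 1.05, exact p = 1.61e-16). Pooled over chromosomes, the distal ends had more H3K4me3 and H3K27me3 and less H3K9me3 than the starts, while the H3K4me3 ratio was below 1 at 11 of the 19 distal ends. The starts were not taken chromosome by chromosome, so these p-values do not cover the spread between chromosomes. Chromosome 4 alone held 4471 of the 29266 distal H3K4me3 reads, and whether the small H3K4me3 difference rests on that end was not tested.

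WCE itself, the denominator of every ratio, was thinner at most ends. It had 1254 reads per Mb in the distal ends and 1524 in the inner stretches, 0.823 times as many, and its density was lower in the distal end on 15 of 19 chromosomes. The distal over inner density was lowest at chromosome 18 (0.321) and highest at chromosome 2 (2.06), and 6.34% of distal tiles had no read in any library, against 5.83% of all autosomal tiles. Ends with many WCE reads also had high ratios. Over the 19 ends, the log2 ratio correlated with the log2 number of WCE reads with a Pearson r of 0.836 for H3K4me3, 0.911 for H3K27me3 and 0.514 for H3K9me3 (Spearman rho 0.902, 0.951 and 0.542). WCE reads are also the denominator of each ratio. The log2 ratios of H3K4me3 and H3K27me3 correlated with each other over ends with an r of 0.822 and share WCE as denominator. GC content and mappability were not measured, and their part in these relations was not tested. Counted without WCE, as mark reads per Mb in the distal over the inner stretch, H3K4me3 was at 0.923, H3K27me3 at 0.780 and H3K9me3 at 0.662.

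**Figure D5:**
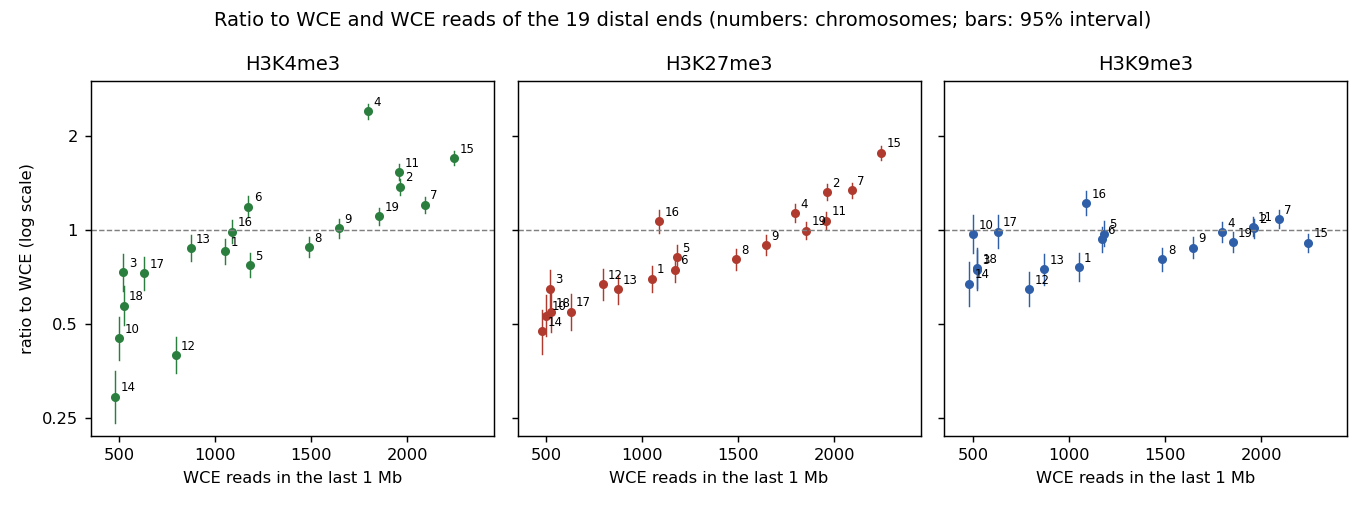
Ratio of each mark to WCE (log axis) in the last 1 Mb of each autosome against its number of WCE reads, with chromosome numbers and 95% exact intervals. H3K27me3 climbs from 0.475 on chromosome 14 to 1.77 on chromosome 15 across the range of WCE reads, and H3K9me3 stays between 0.649 and 1.22.

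Reads with 2 reported positions, which mark sequence present in 2 copies, were more frequent at the ends. Per 100 reads with 1 position there were 8.20 in the distal ends and 4.53 in the inner stretches in WCE, 6.16 and 3.83 in H3K4me3, 7.47 and 4.67 in H3K27me3, and 9.94 and 5.31 in H3K9me3. WCE had 35.7 such reads per 100 at the end of chromosome 10 and 22.3 at that of chromosome 17, against 1.56 at that of chromosome 15. Scaled by the autosomal totals of such reads, H3K4me3 had a distal ratio of 1.05 (0.984 to 1.12), H3K27me3 one of 0.907 (0.850 to 0.967) and H3K9me3 one of 0.954 (0.892 to 1.02). The fold over the inner stretches was 0.996 (0.926 to 1.07, exact p = 0.926) for H3K4me3, 0.838 (0.779 to 0.901, exact p = 1.76e-06) for H3K27me3 and 0.832 (0.771 to 0.897, exact p = 1.54e-06) for H3K9me3. With every read kept, the H3K4me3 fold was 1.55 (exact p = 7.94e-41). The distal ends then listed 3074 H3K4me3 and 2130 WCE reads. A tile pair on chromosomes 1 and 19, described next, held 729 and 725 of the H3K4me3 and 111 and 110 of the WCE. The fold with every read kept was not computed without that pair. Scaled by totals of reads with 1 position, the distal H3K9me3 ratio was 1.13. For reads of duplicated sequence, the ratio to WCE was thus lower at the ends than further in for H3K9me3 and H3K27me3. The H3K4me3 value turned on the treatment of repeated positions, many of them in that tile pair. The files give both places of such a read, and which one it came from cannot be told apart.

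These reads were concentrated in a few tiles. The tile 124 to 128 kb from the end of chromosome 1 (196938846 to 196942845) held 138 H3K4me3, 72 H3K27me3, 59 H3K9me3 and 77 WCE reads with 2 positions, and the tile 64 to 68 kb from the end of chromosome 19 (61253152 to 61257151) held 136, 72, 58 and 76. The near-equal counts come from the same reads: 80.4% of the H3K4me3 and 61.0% of the WCE positions in the chromosome 1 tile had a partner in or beside the chromosome 19 tile at 1 constant offset and on the same strand. The H3K4me3 ratio of these reads was 2.04 in both tiles (1.53 to 2.73), and both tiles were also called for H3K4me3 from reads with 1 position, with 110 H3K4me3 and 49 WCE reads on chromosome 1 and 165 and 60 on chromosome 19. Repeated positions were most frequent here in the H3K4me3 library. With every read kept, the chromosome 1 tile listed 729 H3K4me3 and 111 WCE reads with 2 positions. Over all distal ends, 41.4% of the H3K4me3 reads with 2 positions repeated a position, against 8.26% in WCE. With repeated positions collapsed and without this pair of tiles, the H3K4me3 fold from reads with 2 positions was 0.917 (0.848 to 0.990, exact p = 0.0262).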

How the data were processed

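The deposited files list signed read positions and hold no counts per region. Per the file headers, the authors aligned reads to mm8 with Bowtie (options e 70, k 2, m 2, n 2 and l 36), dropped reads with more than 2 places and kept reads with 1 and with 2 positions apart. The positions carry no unit or normalization in the deposited lists, other than the strand sign. Per the labels' protocols, sonication gave fragments averaging 500 bp, and ligation-mediated PCR ran for 18 cycles. Here, reads were collapsed to 1 per signed position, moved 60 bp along their strand, counted by distance from the end and scaled by autosomal totals of their class. Blocks needed at least 100 WCE reads in block and inner stretch. Ratios have Clopper-Pearson intervals, folds exact conditional intervals. The tile and block tests were tested on simulated data. The median distal tile held 4 WCE reads, so many changes in single tiles, large ones included, are missed. Named are the 3 highest and 3 lowest ends of each mark and the 3 longest stretches. Of the 10 strongest tiles of H3K4me3 and of H3K27me3, only some are given with positions and reads. Regions and tests were chosen with earlier results of these data known. Terminal tiles, 100 kb bins, the split at 50 kb, comparisons with the chromosome starts and the shared tile pair were chosen after their values were seen. Scripts ran in Python 3.11.15 with scipy 1.17.1 and numpy 2.4.6, and plots were drawn with matplotlib 3.10.9.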

Additional observations from a re-analysis of the deposited data

How the results depend on the processing

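No paired analysis was possible because each group holds 1 library. The H3K9me3 fold of the distal over the inner stretch stayed below 1 with an exact p under 0.05 under all alternatives run, and leaving out 1 autosome at a time gave 0.795 to 0.812. For H3K4me3 this range was 1.04 (without chromosome 4) to 1.18 (without chromosome 8), and for H3K27me3 0.872 (without chromosome 15) to 1.01 (without chromosome 8, exact p = 0.388). The H3K4me3 fold was 0.893 with called tiles left out (exact p = 1.72e-21), which removes tiles picked for high H3K4me3 and more frequent at the ends, 0.923 against a uniform background in place of WCE (exact p = 2.51e-37), and 1.01 (exact p = 0.281) against 2 to 5 Mb from the end. The H3K27me3 fold was 1.02 against all of the autosome further in (exact p = 0.0275). Scaling by the median of 100 kb bins leaves folds as they are, but gave distal ratios of 2.08, 1.27 and 0.988 for H3K4me3, H3K27me3 and H3K9me3, ratios in the last 20 kb of 1.72 for H3K4me3 and 1.05 for H3K27me3, and 106 called H3K27me3 tiles (1.69% of all tiles). Keeping every read gave a distal H3K4me3 ratio of 1.23.

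Calls moved with the limits. Against a uniform background, 4 ends were higher for H3K27me3 (40.5% of all blocks) and 3 for H3K9me3 (40.2%), and 317, 535 and 190 distal tiles were called for H3K4me3, H3K27me3 and H3K9me3 (5.07%, 10% and 4.34% of all tiles). Against all of the autosome further in, 4 ends were higher for H3K27me3 (20.8%), and for H3K9me3 1 was higher (11.8%) and 7 lower (17.0%). Against 2 to 5 Mb, 8 were lower for H3K9me3 (16.0%). With a fold of at least 1.5, 3 ends were higher for H3K4me3 (17.6%), 1 for H3K27me3 (12.2%) and 4 lower for H3K9me3 (2.27%). With called tiles left out, 0 ends were higher for H3K4me3 (23.9%). Tiles of 1 kb gave 26 H3K27me3 calls (0.042%), and tiles of 10 kb gave 1 H3K9me3 call (0.186%). WCE density in the distal ends was 0.842 times that at 6 to 11 Mb and 0.781 times that at 2 to 5 Mb. For reads with 2 positions, keeping every read gave an H3K4me3 fold of 1.55 (exact p = 7.94e-41) and a distal ratio of 1.65. In that run the tile pair on chromosomes 1 and 19 held 729 and 725 of the 3074 distal H3K4me3 reads. Scaling them by reads with 1 position gave 0.890 for H3K4me3 and 1.13 for H3K9me3. With repeated positions collapsed and without that tile pair, the H3K4me3 ratio was 0.966 and the fold 0.917 (exact p = 0.0262). The cause of these moves was not tested. Both read classes together were run for folds only. In all, 244 of 279 values kept their direction and side of the threshold or stayed within the limits set. Part of these were fixed in advance, since folds and block calls cannot change with the scaling. Runs that leave out 1 autosome share most of their reads, so the values are not separate checks.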
